A study of Saccharomyces cerevisiae with 42 samples.

Results

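The comparison asked what the loss of one enzyme of sphingolipid breakdown did to transcript levels in the first minutes of a heat shock. Budding yeast (Saccharomyces cerevisiae) lacking DPL1 was compared with its parental strain after 5 and 10 min at 39 C, on 4 arrays of the dpl1 deletion and 4 of the parental strain, 8 of the 42 arrays in the series. The 8 arrays were taken by strain and time alone, so no measured value chose them. The series followed 3 strains over 7 times, from before heat to 30 min, with replicates numbered 1 and 2 at each time, on Affymetrix yeast arrays that read total RNA. The deletion strain, dpl1D, carries dpl1:KanMX. It is otherwise labelled like the parental strain JK939a, a MAT α strain with leu2-3 112, ura3-52 and rme1, as well as trp1, his4 and HMLa. The third strain, lcb4D/lcb5D, has the same markers and lacks both LCB4 and LCB5. Cells were in log phase, in the rich glucose medium YPD. Nothing in the labels says that the 2 replicates came from separate cultures, so p-values here measure the spread between these arrays, which may be technical, and nothing says how many clones of the deletion were used.

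Sphingolipids of yeast are built on long-chain bases made by serine palmitoyltransferase. Long-chain bases can be phosphorylated by the kinases Lcb4 and Lcb5, dephosphorylated again by Lcb3 and Ysr3, or joined to a fatty acid to make ceramide. Dpl1, the long-chain base phosphate lyase of the endoplasmic reticulum, splits the phosphorylated base irreversibly and is the exit of the pathway. Cells without it accumulate long-chain base phosphates, and in yeast both the bases and their phosphates are known to rise transiently when cells are heated. A heat shock also switches on chaperones through Hsf1 and general stress genes through Msn2 and Msn4, and shuts down ribosome production, which gives the groups of genes described here.

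All values are log2 levels from RMA (robust multi-array average, which corrects background, normalizes the arrays to each other and sums the probes of a gene), so a difference of 1 is a 2-fold difference. Of 5656 genes tested, the strain term of the limma fit called 1 at an adjusted p under 0.05, or 0.0177%. The replicate number was the larger source of spread. In these arrays it called 1338 genes (23.7%), and arrays of the other strain at the same time and number correlated at 0.983 to 0.991 across genes, against 0.961 to 0.980 for arrays of the same strain and time with the other number. Arrays numbered 2 had 18S rRNA signals of 4.69 to 9.74, against 12.94 to 13.17 in arrays numbered 1, and a 3′ minus 5′ gap of the control transcript SRB4 of 1.53 to 2.25, against 0.29 to 0.71. Both numbers hold both strains equally, and the number stood as a block in the fits unless another fit is named. The SRB4 gap was also smaller in the dpl1 array of each pair. It was 0.29 against 0.71 and 1.53 against 1.65 at 5 min, and 0.36 against 0.51 and 1.59 against 2.25 at 10 min. The gap of ACT1, another control transcript, was 0.61 against 0.76 and 0.8 against 0.52, then 0.57 against 0.54 and 0.53 against 0.52. The block does not remove a gap between the strains, and its part was not tested. Most cell type markers went with the α-cell label in both strains. The pheromone gene MF(ALPHA)1 lay at 10.63 to 11.73 in dpl1 arrays and 10.78 to 11.84 in parental arrays. STE2, the receptor of a cells, lay at 2.91 to 3.56 in dpl1 arrays and 3.08 to 3.82 in parental arrays. The α-cell genes MF(ALPHA)2 and SAG1 lay at 8.1 or above, and the a-cell genes measured at 5.8 or below. The α-cell gene STE3 did not stand apart at 10 min, at 5.03 and 5.36 in dpl1 arrays and 5.31 and 5.27 in parental arrays. The a-cell gene MFA2 then lay at 5.65 and 5.63 in dpl1 arrays and 5.25 and 5.37 in parental arrays. One array outside the 8, the parental array before heat numbered 1, stood apart. It had 7.38 for the small heat shock protein gene HSP26, against 4.02 in the other parental array before heat, so the main values that use the state before heat are also given by replicate number.

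DPL1 (YDR294C) was the gene that differed. Its level in the dpl1 deletion was 3.63 and 2.62 at 5 min and 2.95 and 2.71 at 10 min. In the parental strain it was 8.74 and 8.91 at 5 min and 8.94 and 8.85 at 10 min. The strains were far apart in all 4 matched pairs of arrays. The means were 2.98 ± 0.46 in dpl1 arrays and 8.86 ± 0.09 in parental arrays (SD, n = 4 each), a measured difference of -5.88 (limma adjusted p = 2.02e-08). Because the gene is deleted, its dpl1 values are background signal, so this and the other differences given for DPL1 only bound the true one. Over the whole course the 14 dpl1 arrays lay between 2.58 and 3.63, the 14 parental arrays between 8.72 and 9.81 and the 14 lcb4D/lcb5D arrays between 8.64 and 10.03. Every array thus carried the DPL1 level its label calls for, which rests on this gene alone. Between the times DPL1 changed little: 10 min differed from 5 min by -0.11 ± 0.18 over both strains (adjusted p = 0.683).

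The genes next to DPL1 on the chromosome did not differ beyond their error. SSD1, which encodes an RNA-binding protein, lay at 8.34, 8.81, 8.21 and 8.73 in dpl1 arrays and at 8.36, 8.53, 8.37 and 9.05 in parental arrays, a difference of -0.06 ± 0.13. YDR292C, for a subunit of the signal recognition particle receptor, differed by 0.06 ± 0.12, and MHR1, for a mitochondrial recombination protein, by -0.10 ± 0.11. HDA2, for a subunit of a histone deacetylase complex, differed by -0.04 ± 0.12. It lay at 3.32 to 3.71 in dpl1 arrays and 3.3 to 3.77 in parental arrays. That is near the background signal of the deleted DPL1, so its small difference cannot show whether this neighbour was unchanged. The largest bound that the 95% intervals of these 4 genes allow is -0.36.

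**Figure D1:**
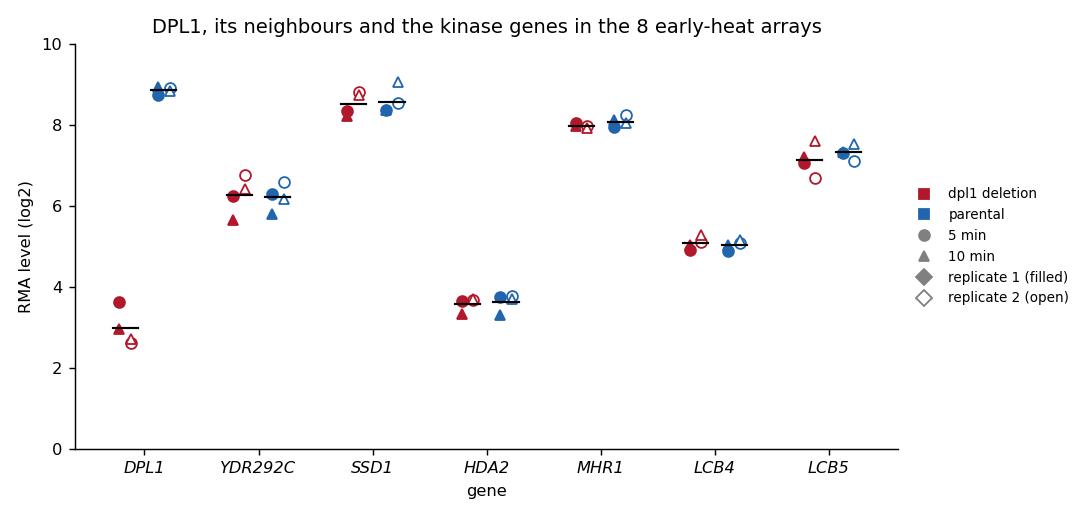
RMA level (log2) of DPL1, of its 4 neighbours and of the kinase genes LCB4 and LCB5 in each of the 8 early-heat arrays. Red marks are dpl1 arrays and blue marks parental arrays, circles 5 min and triangles 10 min, filled marks replicate 1 and open marks replicate 2, and bars are means of 4 arrays. DPL1 lies at 2.62 to 3.63 in dpl1 arrays and 8.74 to 8.94 in parental arrays, while the other genes overlap.

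The rest of the sphingolipid pathway was measured with the same precision and did not pass the test. Of 40 other genes of sphingolipid synthesis and turnover, 0 were called in either direction. At an unadjusted p under 0.05 there were also 0 of 40, against 4.28% of all genes. Their differences ran from -0.20 to 0.40 with a median of 0.01 (all genes -0.01), 21 above 0 and 19 below. All 40 intervals held 0, and they reached at most from -0.53 to 0.88.

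Enzymes that make or consume the substrate of Dpl1 were examined first. LCB4, the major long-chain base kinase, lay at 4.91, 5.12, 5.03 and 5.27 in dpl1 arrays and at 4.89, 5.09, 5.04 and 5.15 in parental arrays, a difference of 0.04 ± 0.11. LCB5, the second kinase, lay at 7.05, 6.68, 7.21 and 7.61 in dpl1 arrays and at 7.31, 7.12, 7.32 and 7.53 in parental arrays, a difference of -0.18 ± 0.15. The arrays of the strains overlapped for both genes. LCB3, the main phosphatase that reverses the kinases, differed by 0.06 ± 0.12. YSR3, its paralogue, had the largest difference of the list, 0.40 ± 0.22 (95% interval -0.07 to 0.88), with 5.59, 6.27, 6.57 and 5.66 in dpl1 arrays and 5.82, 5.23, 5.64 and 5.77 in parental arrays. It was higher in the dpl1 array in 2 of 4 pairs. RSB1, a transporter-like protein linked to long-chain base export, differed by 0.20 ± 0.13.

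Synthesis and ceramide genes had intervals that held 0. The serine palmitoyltransferase genes LCB1 and LCB2 differed by 0.14 ± 0.11 and 0.07 ± 0.14, and their small activator TSC3 by -0.03 ± 0.14. The ceramide synthase genes LAG1, LAC1 and LIP1 differed by -0.07 ± 0.14, -0.01 ± 0.13 and -0.06 ± 0.14. Of the ceramidases, YPC1 differed by 0.25 ± 0.15, with 8.39, 8.47, 8.96 and 9.38 in dpl1 arrays and 8.31, 8.62, 8.70 and 8.57 in parental arrays, and YDC1 by -0.13 ± 0.11. ISC1, which cleaves complex sphingolipids, differed by -0.08 ± 0.11. AUR1, which makes inositol phosphorylceramide, differed by 0.02 ± 0.11, although its level fell by 1.22 on the log2 scale at 10 min against 5 min over both strains.

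The same held for regulators that read sphingolipids. ORM1 and ORM2, inhibitors of serine palmitoyltransferase, each differed by -0.14, with SEs of 0.12 and 0.13. The kinase genes YPK1 and PKH1, through which long-chain bases signal, differed by -0.10 ± 0.14 and -0.09 ± 0.13. HFD1, the fatty aldehyde dehydrogenase that handles the aldehyde released by Dpl1, differed by 0.00 ± 0.12. Its level was 9.18, 9.38, 9.85 and 10.07 in dpl1 arrays and 9.19, 9.61, 9.82 and 9.85 in parental arrays, and it was higher at 10 min than at 5 min by 0.56 in the 2 strains together.

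**Figure D2:**
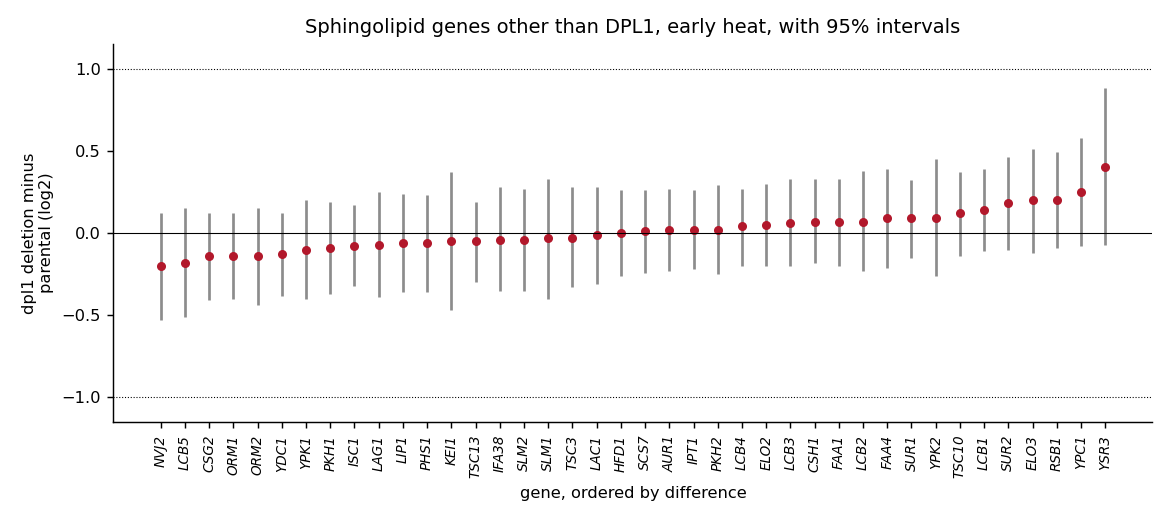
Difference between the dpl1 deletion and the parental strain (log2) for 40 sphingolipid genes other than DPL1 in early heat. Points are the fitted differences over 4 arrays a strain, lines their 95% intervals, and dotted lines mark 2-fold. All 40 intervals cross 0 and none reaches the dotted lines.

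Across the transcriptome the strain difference was small next to what the same arrays showed for time. The time term of the same fit called 2017 genes (35.7%), 945 higher (16.7%) and 1072 lower (19%) at 10 min than at 5 min, with the same standard errors as the strain term. After DPL1 the smallest adjusted p for strain was 0.994. At an unadjusted p under 0.05 there were 242 genes (4.28%), 123 higher (2.17%) and 119 lower (2.1%) in the deletion. The 4 dpl1 arrays lay apart from the 4 parental arrays in 52 genes (0.919%), 26 in each direction (0.46%). With the arrays of each strain and replicate number as a random block, whose estimated correlation was -0.564, 21 genes were called (0.371%), 13 higher and 8 lower, among them MTR4, NOG1, PCL1 and PUT1, and all but DPL1 had adjusted p of 0.0447 or more. With the arrays of each strain and replicate number averaged to 1 value, DPL1 was again the 1 call. Besides DPL1, only RDN18-1, an 18S rRNA gene, differed by over 1. Its values were 13.27, 4.78, 13.50 and 4.28 in dpl1 arrays and 12.89, 3.71, 13.31 and 11.35 in parental arrays, and its difference of -1.36 ± 1.13 came from the parental 10 min array numbered 2.

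The intervals say how large a difference the spread between these arrays would allow. They do not cover a spread between cultures or clones, which the labels do not give. They also depend on the block and the scaling. Genes at an unadjusted p under 0.05 in the limma fit numbered 242, but 77 without the replicate block. With scaling to hybridisation controls they numbered 3. The median standard error was 0.13, and for 5613 genes (99.2%) the 95% interval of the difference between the strains lay within 2-fold in either direction. For 4478 genes (79.2%) it lay within 0.5 log2 units. Among the 2017 genes called for time, the strain interval lay within 2-fold for 1996 (99.0%), and 0 of them were called for strain. The median size of their time difference was 0.62 and that of their strain difference 0.10. The intervals are per gene and not adjusted for the number of genes.

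**Figure D3:**
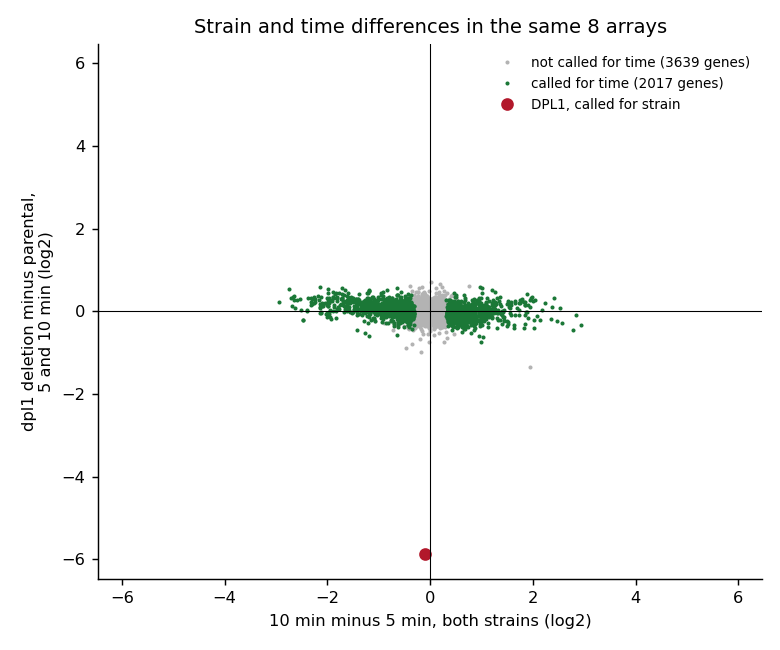
Each of 5656 genes by its difference between 10 and 5 min over both strains (horizontal axis, log2) and its difference between the dpl1 deletion and the parental strain over both times (vertical axis, log2), on equal axes. Green points are the 2017 genes called for time. The cloud is wide along the time axis and narrow along the strain axis, and DPL1 alone lies near -5.88 for strain.

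Taken at each time by itself, the strain comparison again called DPL1 alone: 1 gene at 5 min (0.0177%) and 1 gene at 10 min (0.0177%). DPL1 differed by -5.70 at 5 min (adjusted p = 3.65e-06) and by -6.06 at 10 min (adjusted p = 1.99e-06). Without the parental 10 min array numbered 1, RDN18-1 joined it at 10 min. Unadjusted p-values under 0.05 numbered 311 at 5 min (5.5%) and 106 at 10 min (1.87%). The change of the strain difference between the times called 0 genes (0%), with 167 at an unadjusted p under 0.05 (2.95%) and a smallest adjusted p of 0.997. Leaving out the parental 5 min array numbered 1 gave 1 call, DOG1, and leaving out the parental 10 min array numbered 1 gave 1 call, RDN18-1.

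No chaperone gene of the Hsf1 response passed the test between the strains. Of 31 heat shock chaperone genes 0 were called for strain, with differences of -0.28 to 0.17 and a median of -0.03. The list is not limited to the cytosol and includes the mitochondrial chaperone genes HSP60, HSP10, SSC1, MDJ1 and HSP78. At 10 min against 5 min 22 of the 31 rose and 1 fell, against 16.7% and 19% of all genes. SSA4, an inducible Hsp70, lay at 11.88, 11.87, 12.67 and 13.16 in dpl1 arrays and at 12.05, 11.92, 12.73 and 12.95 in parental arrays, a difference of -0.02 ± 0.13. HSP104, the disaggregase, lay at 10.40, 10.65, 10.93 and 11.10 in dpl1 arrays and at 10.42, 10.46, 11.01 and 11.28 in parental arrays, a difference of -0.02 ± 0.11. HSP26 differed by -0.06 ± 0.11 and HSP82, an Hsp90, by -0.03 ± 0.12. The largest difference of the list was that of HSP42, a small heat shock protein, at -0.28 ± 0.17. Its values were 11.99, 11.09, 12.32 and 12.37 in dpl1 arrays and 12.16, 11.89, 12.38 and 12.48 in parental arrays, lower in the dpl1 array of all 4 pairs.

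General stress genes did not pass it either. None of 32 Msn2/Msn4 genes was called for strain, with a median difference of -0.02 and a range of -0.28 to 0.18. From 5 to 10 min 31 of 32 rose, against 16.7% of all genes. CTT1, the cytosolic catalase, lay at 9.61, 9.82, 10.41 and 10.79 in dpl1 arrays and at 9.47, 9.57, 10.37 and 10.89 in parental arrays, a difference of 0.08 ± 0.12. HSP12, a membrane-stabilizing stress protein gene, differed by -0.06 ± 0.11. Among 20 trehalose and glycogen genes 0 were called for strain. With time 15 rose and 1 fell, against 16.7% and 19% of all genes. TPS1, which makes trehalose 6-phosphate, lay at 11.03, 11.29, 11.62 and 11.91 in dpl1 arrays and at 10.89, 11.10, 11.54 and 11.76 in parental arrays. It was higher in the dpl1 array of all 4 pairs, by 0.14 ± 0.11, which did not pass the test.

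Before heat no stress gene passed the test, and most had lower values in the deletion. The strain difference before heat, from 2 arrays a strain, called 1 gene, DPL1 (0.0177%), and at an unadjusted p under 0.05 there were 132 lower genes (2.33%). Of the 32 Msn2/Msn4 genes, 28 lay below 0 and 12 had an unadjusted p under 0.05, all 12 lower in the deletion. Their median difference was -0.33. Within replicate 1 it was -0.38 with 28 of 32 below 0, against 41% of all genes, and within replicate 2 it was -0.35 with 22 of 32 below 0, against 54% of all genes. CTT1 had 4.48 and 4.52 in dpl1 arrays and 5.80 and 5.40 in parental arrays, a difference of -1.10 ± 0.29. HSP26 had 3.97 and 4.20 in dpl1 arrays and 7.38 and 4.02 in parental arrays, so its difference of -1.61 ± 0.54 came from the parental array numbered 1, where SSA4 was also high.

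Counted from their own level before heat, Msn2/Msn4 genes had a larger median gain in the deletion in all 4 pairs. The 5 and 10 min gains of a replicate share its array before heat, so the 4 pairs are not independent. The median strain difference of these genes was -0.38 and -0.35 before heat and -0.02 in early heat. The larger gains thus restate the difference before heat, which includes the parental array that stood apart. At 5 min it was 3.06 in replicate 1 and 2.97 in replicate 2 of the deletion, and 2.38 and 2.66 in the parental strain. At 10 min it was 3.70 and 4.37 in the deletion, and 3.38 and 3.90 in the parental strain. Trehalose and glycogen genes gained 2.91 and 3.25 at 10 min in the deletion and 2.87 and 2.73 in the parental strain. Chaperone genes gained 2.62 and 3.17 in the deletion and 2.65 and 2.93 in the parental strain. The test of that change, the strain difference in early heat minus that before heat, called 0 genes (0%), with a smallest adjusted p of 0.999 and 129 genes at an unadjusted p under 0.05. At that unadjusted level 5 of the 32 Msn2/Msn4 genes were higher and 0 lower, against 0.99% of all genes higher. CTT1 changed by 1.19 ± 0.35 (adjusted p = 0.999), which was 1.41 within replicate 1 and 0.96 within replicate 2. Without 1 array before heat this test called 6 genes (without the dpl1 array numbered 2), 3 genes (without the parental array numbered 1: MIH1, RSE1 and YPT6), 1 gene (without the dpl1 array numbered 1: HSP82) or 1 gene (without the parental array numbered 2: HSP26).

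Across all genes the change since before heat ran closely together in the strains, which share no arrays here. Pearson's r across 5656 genes, which are not independent replicates, was 0.924 at 5 min and 0.973 at 10 min. Within replicate 1 it was 0.891 and 0.935, and within replicate 2 0.811 and 0.945. At 10 min 1597 genes in the deletion and 1506 in the parental strain had moved by over 1 from their level before heat. Within replicate 1 these were 1633 in the deletion and 1422 in the parental strain, and within replicate 2 they were 1689 and 1719.

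**Figure D4:**
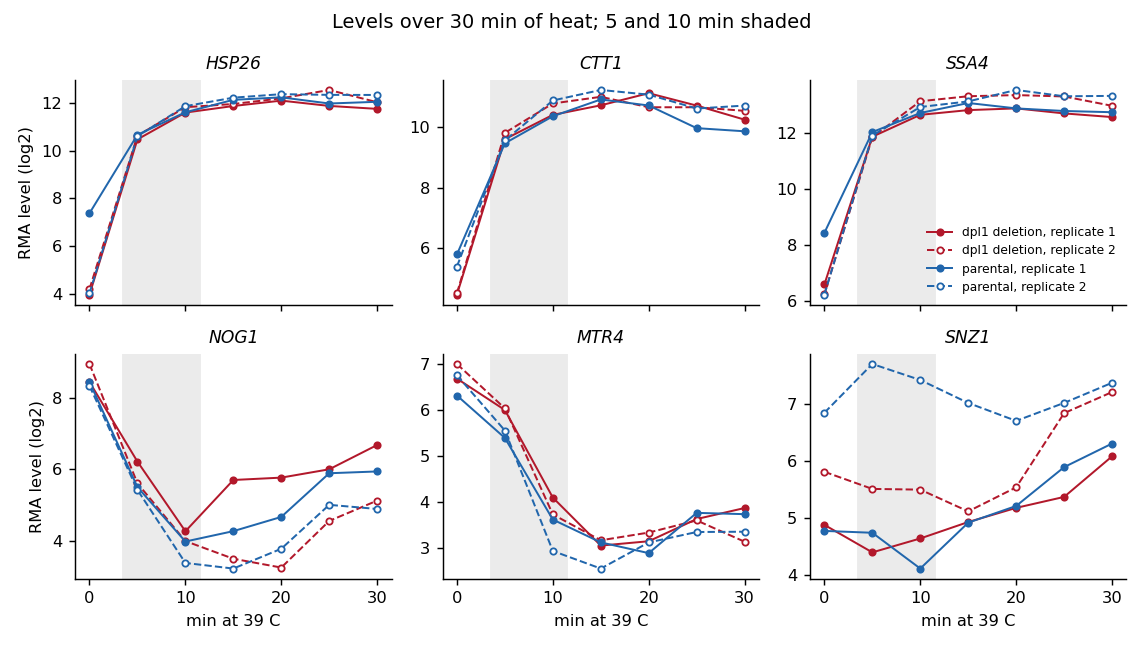
RMA level (log2) against minutes at 39 C for 6 genes. Red lines are the dpl1 deletion and blue lines the parental strain, solid lines with filled marks replicate 1 and dashed lines with open marks replicate 2, and 5 and 10 min are shaded. HSP26, CTT1 and SSA4 lie together in the shaded times, NOG1 and MTR4 fall steeply in both strains, and SNZ1 is separated in replicate 2, at 5.51 and 5.50 in the deletion and 7.71 and 7.42 in the parental strain.

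The genes of ribosome production were the list with the largest median difference. Of 109 ribosome biogenesis genes 0 were called for strain, while 102 fell from 5 to 10 min, against 19% of all genes. Their median strain difference was 0.19, with 90 above 0 and 19 below, while 2709 of all 5656 genes lay above 0. At an unadjusted p under 0.05, 17 were higher and 2 lower, against 2.17% higher and 2.1% lower of all genes. By matched pair the median was 0.34 and 0.23 at 5 min and 0.11 and -0.04 at 10 min, so the pair of 10 min arrays numbered 2 did not share it. In 27 of the 109 genes the dpl1 array was higher in all 4 pairs, against 6.06% of all genes. The median was 0.31 before heat (0.23 within replicate 1 and 0.43 within replicate 2) and 0.21 at 15 to 30 min. In early heat the median of lcb4D/lcb5D minus the same parental arrays was 0.44, so a higher median was not particular to the dpl1 deletion. These genes vary together and are not independent replicates.

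Members of small p are given as values, and their choice by p favours large differences. MTR4, an RNA helicase of nuclear RNA surveillance, lay at 6.01, 6.04, 4.10 and 3.74 in dpl1 arrays and at 5.40, 5.56, 3.62 and 2.94 in parental arrays, a difference of 0.59 ± 0.15 (95% interval 0.27 to 0.91, adjusted p = 0.994). NOG1, a GTPase of large-subunit assembly, lay at 6.22, 5.61, 4.28 and 4.01 in dpl1 arrays and at 5.51, 5.43, 3.99 and 3.40 in parental arrays, a difference of 0.45 ± 0.12. DBP2, an RNA helicase, differed by 0.56 ± 0.16 and NAN1, a component of the small-subunit processome, by 0.52 ± 0.15. Over both strains the same genes were lower at 10 min than at 5 min, by -2.15 for MTR4, -1.77 for NOG1, -1.72 for DBP2 and -1.20 for NAN1. SOF1 and PWP2, both of the small-subunit processome, went the other way, at -0.60 ± 0.25 and -0.45 ± 0.15, and SOF1 was the largest difference of the list. NSR1, which encodes a nucleolar protein, was higher in the dpl1 array in 2 of 4 pairs, with 6.45, 5.91, 3.90 and 3.25 in dpl1 arrays and 5.13, 6.02, 3.63 and 3.79 in parental arrays.

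Other parts of the translation machinery held no call for strain either. Of 26 genes for RNA polymerases I and III and their factors, 0 were called for strain. With time 20 fell, against 19% of all genes. The median strain difference was 0.11. The median lay above 0 in each pair, at 0.08 and 0.18 at 5 min and 0.22 and 0.06 at 10 min, and 22 of the 26 genes lay above 0, 6 of them higher in all 4 pairs, against 6.06% of all genes. RPC53, a subunit of RNA polymerase III, differed by 0.50 ± 0.15 and RPA43, a subunit of RNA polymerase I, by 0.42 ± 0.15, neither past the test. Of 76 cytosolic ribosomal protein genes with a probe set of their own, 65 fell with time, against 19% of all genes. For strain 0 were called. The median difference was 0.10, and by pair it was 0.18 and 0.04 at 5 min and -0.09 and 0.32 at 10 min. Many ribosomal proteins have near-identical gene copies: probe sets that share several genes were left out, and signals of the remaining paralogues are uncertain. RPL39 lay at 11.02, 11.52, 10.52 and 10.93 in dpl1 arrays and at 10.54, 11.04, 10.31 and 10.78 in parental arrays, a difference of 0.33 ± 0.11 that did not pass the test.

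No list of mitochondrial genes held a call for strain in early heat. Of 27 nuclear genes of the respiratory chain and cytochrome c, 17 of the ATP synthase, 23 of the TCA and glyoxylate cycles and 5 HAP factors, which switch respiratory genes on, 0 were called for strain. CYC1, cytochrome c, lay at 10.74, 11.05, 10.30 and 11.02 in dpl1 arrays and at 10.40, 11.20, 10.52 and 10.62 in parental arrays, a difference of 0.09 ± 0.14. HAP4, the regulated subunit of the activator, lay at 8.06, 8.87, 7.67 and 8.11 in dpl1 arrays and at 7.80, 8.72, 7.66 and 8.01 in parental arrays, a difference of 0.13 ± 0.13. COX4, a subunit of cytochrome oxidase, differed by 0.04 ± 0.15 and ATP1, a subunit of the ATP synthase, by 0.07 ± 0.12. The pair medians of the ATP synthase list were 0.23 and -0.20 at 5 min and -0.11 and 0.37 at 10 min, so the sign turned between replicate numbers at both times. Of 65 mitochondrial ribosomal protein genes 52 lay below 0, with a median of -0.12. By pair the median was 0.11 and -0.51 at 5 min and -0.17 and 0.12 at 10 min, so the sign differed between pairs.

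The remaining lists had medians between -0.14 and 0.09 and 0 calls each. They include genes of the cell wall, the proteasome, the unfolded protein response, oxidative stress defence, ergosterol and fatty acid synthesis, autophagy and the cell cycle. The lowest medians were -0.14 for nitrogen catabolite repression (20 of 27 genes below 0), -0.13 for purine and one-carbon genes (19 of 25) and -0.13 for the proteasome (31 of 35). Of all 5656 genes 2947 lay below 0. The pair medians of each of these lists had both signs. Genes lower in all 4 pairs numbered 7 of 27 for autophagy, 6 of 27 for iron and copper uptake and 6 of 40 for oxidative stress defence, against 6.47% of all genes. ATG5, needed to build autophagosomes, differed by -0.36 ± 0.12, FRE2, a ferric reductase, by -0.33 ± 0.12, and GTT1, a glutathione transferase, by -0.40 ± 0.13, none past the test. The 91 tRNA genes showed how far replicate arrays could part: their median by pair was -0.32 and 0.97 at 5 min and 0.67 and -0.55 at 10 min, and 0 of 91 were higher in all 4 pairs. Their fitted differences lay above 0 in 87 of 91, with a median of 0.17.

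**Figure D5:**
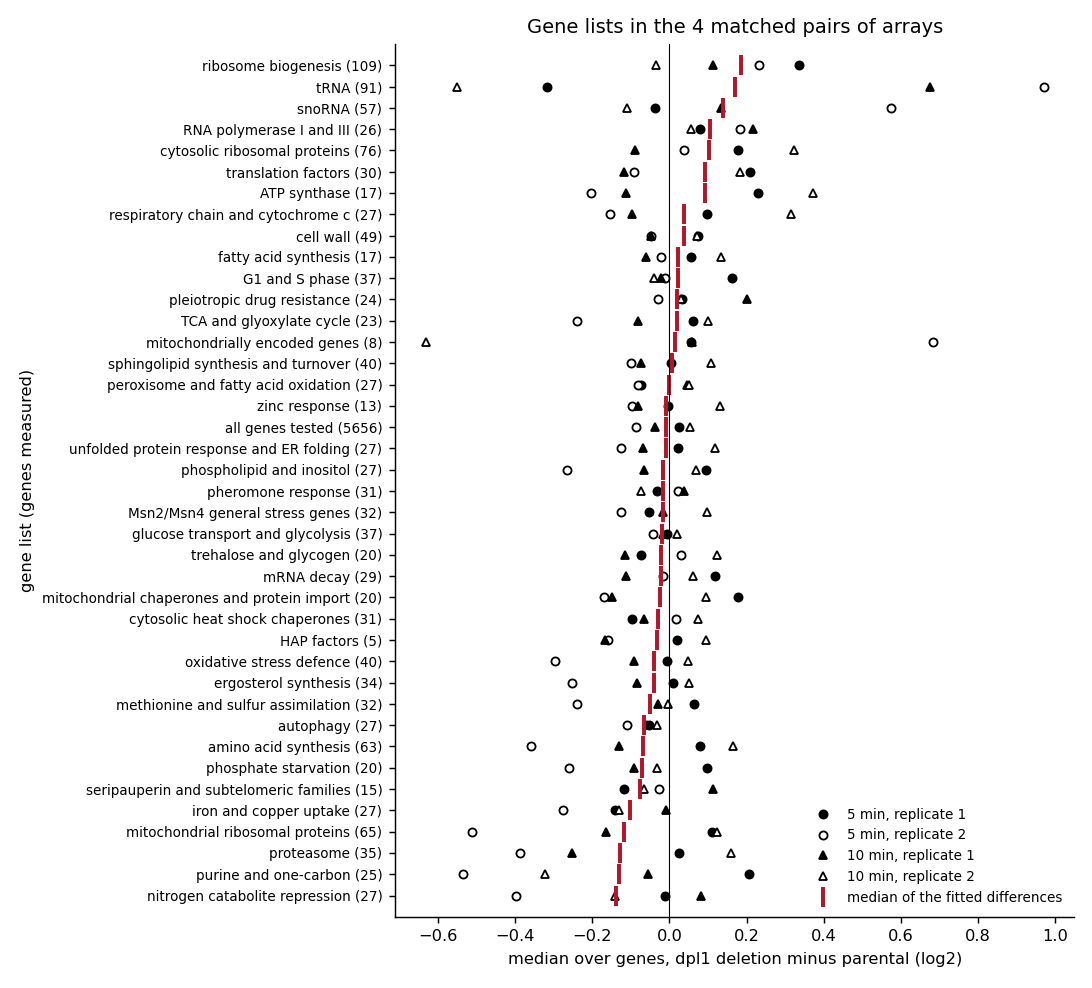
Median over the genes of each list of the difference between the dpl1 deletion and the parental strain (log2), for all genes, 37 gene lists and the tRNA and snoRNA genes. Circles are the pairs of 5 min arrays and triangles those of 10 min, filled for replicate 1 and open for replicate 2, and red bars are medians of the fitted differences. The red bars run from -0.14 to 0.19, while the pairs of one list spread to both sides of 0 in most lists.

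No gene other than DPL1 was called, so the next genes by p are given as values only. Among those higher in the deletion, PCL1, a G1 cyclin gene, lay at 4.62, 4.25, 3.69 and 3.35 in dpl1 arrays and at 4.16, 3.90, 3.10 and 3.01 in parental arrays, a difference of 0.44 ± 0.11 (adjusted p = 0.994). GAS2, a glucan-remodelling enzyme gene of sporulation, lay at 5.40, 6.26, 5.70 and 5.99 in dpl1 arrays and at 5.30, 5.49, 5.07 and 5.07 in parental arrays. SNR6, the U6 spliceosomal RNA, differed by 0.58 ± 0.16, the small nucleolar RNAs SNR55 and SNR44 by 0.60 ± 0.14 and 0.50 ± 0.13, and HEM3, an enzyme of haem synthesis, by 0.48 ± 0.14. These were higher in the dpl1 array of all 4 pairs, which their choice by p favours.

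Among those lower in the deletion, PUT1, the proline oxidase of mitochondria, lay at 5.31, 6.42, 6.51 and 7.73 in dpl1 arrays and at 6.0, 7.41, 6.73 and 8.26 in parental arrays, a difference of -0.61 ± 0.14 (adjusted p = 0.994). BNA4, an enzyme of NAD synthesis from tryptophan, lay at 4.80, 6.93, 4.93 and 7.24 in dpl1 arrays and at 5.30, 8.36, 5.24 and 7.93 in parental arrays, a difference of -0.73 ± 0.17. MEP2, a high-affinity ammonium transporter, lay at 5.02, 7.13, 4.58 and 6.83 in dpl1 arrays and at 5.20, 8.91, 4.84 and 8.10 in parental arrays, a difference of -0.87 ± 0.23. For MEP2 and BNA4 the gap was wider between arrays numbered 2 than between arrays numbered 1. JEN1, a lactate transporter gene, differed by -0.42 ± 0.12, GPX2, a glutathione peroxidase gene, by -0.41 ± 0.12, and HTL1, of the RSC chromatin remodeller, by -0.42 ± 0.13. HTL1 lay at 2.18 to 2.39 in dpl1 arrays and 2.47 to 2.92 in parental arrays, within or below the background signal of the deleted DPL1.

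Some genes had wide gaps between the strains in arrays numbered 2 and small ones in arrays numbered 1. They were singled out after their values were seen, and the test of a difference between the numbers, given after them, called none. Within the arrays numbered 2 alone, a fit with 1 residual degree of freedom called 13 genes (0.23%), and within those numbered 1 it called 8 (0.141%), with DPL1 the 1 gene in both. Of the 12 others called in replicate 2, 9 had their highest early levels in the 2 parental arrays numbered 2: SNZ1, SNO1, MEP2, SER3, GCV2, BNA2, IMD2, ADH5 and YJR079W. SNZ1, of vitamin B6 synthesis, lay at 4.40 and 4.64 in dpl1 arrays and 4.74 and 4.12 in parental arrays numbered 1, and at 5.51 and 5.50 in dpl1 arrays and 7.71 and 7.42 in parental arrays numbered 2. SER3, of serine synthesis, lay at 2.65 and 3.32 in dpl1 arrays and 3.33 and 3.10 in parental arrays numbered 1, and at 5.20 and 5.35 in dpl1 arrays and 6.30 and 6.79 in parental arrays numbered 2. GCV2, of glycine breakdown, differed by -0.20 within replicate 1 and by -1.36 within replicate 2, and BNA2, of NAD synthesis, by 0.00 and -1.50.

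The parental arrays numbered 2 were already high before heat in several of these genes. SER3 lay at 3.06 and 4.36 in dpl1 arrays and at 2.52 and 6.09 in parental arrays before heat, and SNZ1 at 4.88 and 5.81 in dpl1 arrays and at 4.78 and 6.85 in parental arrays. The test of whether the strain difference itself changed between replicate numbers called 0 of 5656 genes, with 64 at an unadjusted p under 0.05 and a smallest adjusted p of 0.215. The 18S rRNA signal and the SRB4 gap moved with the replicate number too, and their part in these values was not tested.

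The test against later heat called no gene. Over 15 to 30 min the strain comparison called 2 genes (0.0354%), DPL1 at -6.43 and SHR5, for a subunit of a palmitoyltransferase, at -0.69 ± 0.12 (adjusted p = 0.0124). In early heat SHR5 lay at 6.18, 5.80, 6.91 and 6.48 in dpl1 arrays and at 6.59, 6.13, 6.69 and 6.69 in parental arrays, a difference of -0.18 ± 0.13. The strain difference in early heat minus that at 15 to 30 min called 0 genes (0%), with 104 at an unadjusted p under 0.05, and for SHR5 it was 0.50 ± 0.20.

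The other deletion gives a second strain contrast, though its count is not a measure of the arrays' power. In a fit over all 42 arrays, the dpl1 deletion against the parental strain in early heat again called 1 gene, DPL1. Set against lcb4D/lcb5D at the same times in a fit over all 42 arrays, the dpl1 deletion differed in 282 genes (4.99%), 127 higher (2.25%) and 155 lower (2.74%), and without the replicate block in 36 genes, 13 higher and 23 lower. This contrast shares its dpl1 arrays with the comparison above, and lcb4D/lcb5D against parental, with 404 calls (7.14%), shares the parental ones. The count depended on single arrays: it was 161 or 39 without the dpl1 5 min array numbered 1 or 2, 164 or 65 without the dpl1 10 min array numbered 1 or 2, 29 without the lcb4D/lcb5D 5 min array numbered 2, and 750 or 53 without the lcb4D/lcb5D 10 min array numbered 1 or 2. That last array stood apart, with a 3′ minus 5′ gap of 3.73 for SRB4 and 1.5 for ACT1, against 0.38 to 2.0 and 0.61 to 0.73 in the other 3 early lcb4D/lcb5D arrays, and the part of this in the count was not tested. For the 281 called genes other than DPL1, the dpl1 interval against the parental strain lay within 2-fold for 97.9%, close to the 99.2% of all genes. The median size of their difference was 0.68 against lcb4D/lcb5D, by which they were chosen, and 0.09 against the parental strain, the same as for all genes.

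After DPL1, the genes deleted in the other strain had the smallest p. Their lcb4D/lcb5D values are background signal, so the differences are bounds. LCB5 lay at 7.05, 6.68, 7.21 and 7.61 in dpl1 arrays and at 2.99, 3.47, 3.14 and 3.06 in lcb4D/lcb5D arrays, a measured difference of 3.98. LCB4 differed by 1.87. GSC2, the stress-induced glucan synthase, lay at 6.33, 6.51, 7.06 and 7.39 in dpl1 arrays and at 8.13, 8.28, 8.20 and 8.04 in lcb4D/lcb5D arrays, a difference of -1.34 ± 0.19, against -0.25 ± 0.15 for dpl1 against the parental strain. Of 49 cell wall genes 8 were lower and 1 higher in the dpl1 deletion than in lcb4D/lcb5D, against 2.74% and 2.25% of all genes, among them PIR3, a cell wall mannoprotein gene, at -1.47 ± 0.24. ATP5, of the ATP synthase, was higher by 1.06 ± 0.17. GSC2, PIR3 and ATP5 were called without each of the 8 arrays in turn, whereas COX4, higher by 1.29, was called in 2 of those 8 fits.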

How the data were processed

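The authors deposited log2 expression values made with RMA, per the submitters' processing notes. Its version is not stated there, and the log base was read from the values, which run from 1.36 to 14.7. Of 9335 probe sets, 60 controls were left out. Of the rest, 6504 listed 1 gene symbol, 328 several and 2443 none in the platform annotation. Each of 5656 genes was read from its probe set of highest mean. Array medians of the 8 arrays ran from 5.65 to 5.69. The number of arrays limits the precision, and no signal over background was used.

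The strain term was fitted with limma 3.58.1 (R 4.3.3) on 8 arrays, with time and replicate number as blocks (4 residual degrees of freedom), p-values being two-sided and Benjamini-Hochberg adjusted over all genes at 0.05. Contrasts at 1 time used group means of the 8 arrays, and those with other times or strains used all 42 arrays, always with the replicate block. The numbers pair the arrays, since arrays sharing a number deviated together from the means of their groups (r of 0.544 to 0.724 over 6 pairs of groups). Intervals are 95% per gene, not adjusted. Genes were named by rule: DPL1, its neighbours, the other deleted genes and cell type markers, the 15 genes of smallest p in each direction, and the 2 of smallest p in each list. List members and a few pathway genes beyond that rule were named for their role. Members, lists and rule were chosen with earlier results of these data known. Scripts were tested on simulated data. Alternatives covered scaling, probe set choice, filters, blocks, array weights and leaving out each array.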

Additional observations from a re-analysis of the deposited data

Results flagged for a closer look

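The probe set 3982_at, for which the platform annotation lists no gene, was left out of the comparisons by gene and carried the largest difference between the strains. It lay at 12.15 to 12.46 in the 4 dpl1 arrays of early heat and at 3.08 to 3.89 in the 4 parental arrays, a log2 difference of 8.96. Over the series all 28 arrays of the deletion strains lay between 11.83 and 13.03, and 13 parental arrays between 3.08 and 4.27. The parental array before heat numbered 1 had 8.15, between the levels of the strains. That array was also high for HSP26 and SSA4, and it enters the results on the state before heat, not the 8 arrays of early heat.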

How the results depend on the processing

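DPL1 was called under each alternative run, between -6.21 and -5.55 on the log2 scale, and it stayed the 1 call of early heat in 12 alternatives that keep all 8 arrays, no replicate block included. Under the others that keep all 8 arrays the count moved. With each strain and replicate as a random block (estimated correlation -0.564) 21 genes were called, 13 higher and 8 lower (0.371%), while averaging each course to 1 value gave 1. With all 9275 probe sets, an alternative added after the data were seen, 2 were called. Leaving out arrays gave 1 to 13 calls for early heat, 1 to 1 at 5 min, 1 to 2 at 10 min, 0 to 1 for the change between the times, 0 to 6 for early heat minus before heat, 0 to 0 for early minus later heat, and 29 to 750 for dpl1 against lcb4D/lcb5D. For early heat, leaving out any 1 of the 8 arrays still called DPL1 alone. Counts above 1 came from leaving out a whole replicate number. The 13 calls (without replicate 1) and 8 calls (without replicate 2) shared 1 gene. Without the replicate block the contrast of the deletions called 36 genes, 13 higher and 23 lower, and the counts of early heat, of each time, of the change between them and of early heat minus before or later heat stayed at 1, 1, 1, 0, 0 and 0. Their unadjusted counts dropped without it, for early heat to 77. Scaling to hybridisation controls moved the median of all genes by 0.19 and 29 of 37 list medians with it. No named gene changed sign past the threshold. With 4 arrays a strain, the 95% interval of a gene had a median half-width of 0.29.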
